A study of Mus musculus with 27 samples.

Results

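The cytosolic ribosomal protein genes were followed across 9 groups of mouse tissue. They were taken by name from the read-count table: 91 of 37095 gene symbols matched the Rps, Rpl, Rpsa or Rplp pattern, with the ribosomal S6 kinases (Rps6k) and Rps19bp1 left out. They comprise 31 of the small subunit, 43 of the large subunit, the 3 stalk genes and 14 paralogs or extra copies. The first 3 classes, 77 genes, are called the core genes.

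The study measured poly(A) RNA of brain, meninges and skull in 27 libraries, 3 in each group. Each tissue was taken from untreated mice, and 0.5 h and 24 h after the interparietal bone of the skullcap was irradiated with UVB light (311 nm, 2 mW). The skullcap was rinsed of blood before the meninges were scraped from it. No source used here gives strain, sex or age, and the labels do not say whether replicates are separate animals, so p-values measure the spread between these samples, which may be technical. Each tissue is a mixture of cell types, and in such bulk samples fewer cells of a type and less RNA per cell cannot be told apart.

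Ribosomal proteins assemble with ribosomal RNA into a small subunit, which decodes messenger RNA, and a large subunit, which forms peptide bonds. The stalk of P0, P1 and P2 (Rplp0, Rplp1, Rplp2) recruits the elongation factors. Their messenger RNAs are among the most abundant in growing cells and classically begin with a C followed by a run of pyrimidines, the 5′ terminal oligopyrimidine (TOP) motif, through which mTOR signalling and Larp1 control their translation.

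Totals ran from 14.2 to 27.3 M (mega) counts per library, and brain control replicate 1 was the deepest, the next reaching 18.2 M. Summed markers matched the labels of brain and skull. Neuron markers (5 of 5 genes found) summed to between 4193 and 4912 CPM in brain and between 15.5 and 36.8 CPM in skull. Osteoblast markers (4 of 4 genes) summed to between 2111 and 3542 CPM in skull and between 6.4 and 12.2 CPM in brain. CPM is counts per 1 M counts of the library. The meninges were not one uniform tissue: choroid plexus markers (3 of 3 genes) ranged from 9.43 to 14038 CPM and skeletal muscle markers (4 of 4 genes) from 4.61 to 3412 CPM among the 9 meninges libraries.

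The counts of single members carry a limit of their own, because many processed copies of these genes exist in the genome. A median of 43.4% of the 50-base windows of a core transcript were found in no other annotated transcript, from 1.35% for Rps27 to 100% for some, and 65 of the 77 core genes shared at least 20% of their windows with another gene. For 19 of them those other genes held more counts than the member itself. Rpl23a had 535 counts in all 27 libraries against 28546 in the genes that share its sequence, and Rps10 had 1136 against 32613. Levels of single genes are therefore uncertain, and changes are read beside the share of unique windows. Exon overlap is a second limit where the strand of counting is unknown: 12 of 90 annotated members shared at least 10% of their exon bases with another gene, 7 of these with one on the opposite strand.

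Promoter windows show the start motif in some members the results below turn on and its absence in others. Each window runs from 40 bases before to 19 after the transcription start listed by RefSeq (GRCm38.p6), read on the gene's strand, with the C and the pyrimidines after it in capitals where a run of at least 5 begins within 5 bases of that start. The 6 genes are among those described below whose RefSeq and GENCODE starts lie 0 to 3 bases apart. Other such genes are not shown, among them Rpl18 with the run and Rplp0, Rpl11, Rpl35a and Rpl39l without it. Rps2 (chr17:24720023-24720082, + strand), Rps27l (chr9:66946046-66946105, + strand), Rpl34 (chr3:130730379-130730438, - strand) and Rps27 (chr3:90213629-90213688, - strand) hold such a run. Rpl7l1 (chr17:46782637-46782696, - strand) and Rpl10a (chr17:28328525-28328584, + strand) do not.
Rps2: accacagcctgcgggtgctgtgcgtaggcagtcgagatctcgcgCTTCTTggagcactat
Rps27l: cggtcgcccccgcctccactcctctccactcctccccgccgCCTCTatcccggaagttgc
Rpl34: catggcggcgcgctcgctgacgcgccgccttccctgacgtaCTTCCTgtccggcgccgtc
Rps27: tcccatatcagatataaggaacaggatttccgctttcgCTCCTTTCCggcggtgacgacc
Rpl7l1: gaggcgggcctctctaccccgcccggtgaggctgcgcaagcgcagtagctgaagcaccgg
Rpl10a: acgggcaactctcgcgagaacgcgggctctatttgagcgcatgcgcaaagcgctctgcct

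Of 57 core genes with a RefSeq promoter, 25 (43.9%) held the run, against 18.8% of 16455 promoters of other coding genes. The letters CCGGAAG, the binding sequence of ETS factors such as GABP, stood on either strand between 100 bases before and 50 after the start in 28.1% of the core promoters and in 9.45% of the others. AAGATGG, part of the YY1 sequence, stood there in 10.5% and 3.9%. TATAAA on the gene's strand in the 50 bases before the start was found in none of the 57 and in 3.46% of the others. These shares depend on the listed starts: of 66 members with a RefSeq promoter (57 core, 9 paralogs or extra copies), 23 had a RefSeq start within 5 bases of the GENCODE start used here. Of these 23, 8 held the run.

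In untreated animals the ribosomal protein genes rose in level from brain through meninges to skull. All 91 genes together held 0.493% ± 0.0909 of the counts in brain, 1.14% ± 0.0833 in meninges and 1.59% ± 0.044 in skull (SD, n = 3 each). The libraries stood at 0.5925%, 0.4713% and 0.4146% in brain, at 1.085%, 1.107% and 1.239% in meninges and at 1.597%, 1.624% and 1.538% in skull. The 3 tissues did not overlap. The exact Clopper-Pearson interval (95%, counting error only) ran from 1.591% to 1.603% for skull control replicate 1 and from 0.4115% to 0.4178% for brain control replicate 3.

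**Figure D1:**
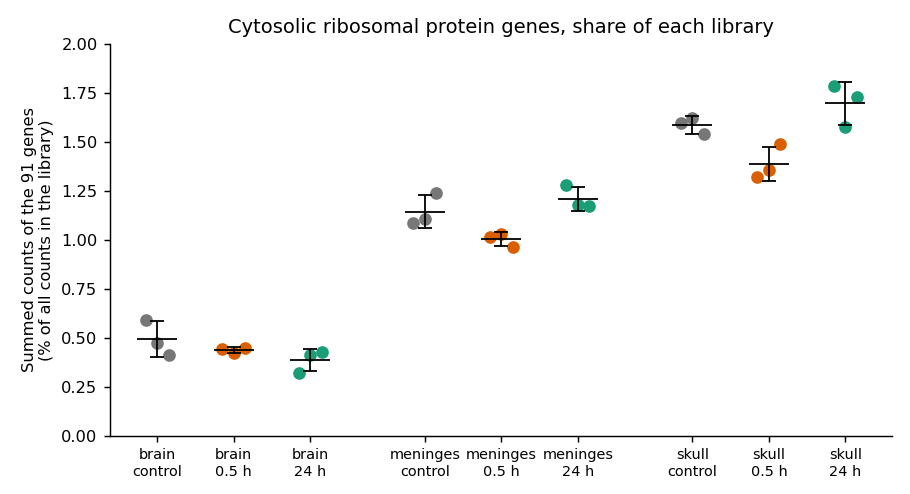
Summed counts of the 91 genes as a percentage of all counts (y axis) in each of the 27 libraries (points), by tissue and time; black lines are group means with SD (n = 3). Brain libraries lie between 0.3212% and 0.5925%, meninges between 0.9617% and 1.278% and skull between 1.322% and 1.784%, and in meninges and skull every 0.5 h library lies below every control library.

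Between untreated tissues most members passed the edgeR quasi-likelihood test at an adjusted p under 0.05, and most genes of the table did too. Of 90 members tested, 72 were higher and 2 lower in meninges than in brain (82.2%, background 70.3% of all tested genes), 83 were higher and none lower in skull than in brain (92.2%, background 76.1%; unadjusted p under 0.05 in 85), and 63 were higher and none lower in skull than in meninges (70%, background 46.4%). The median log2 difference of the members was 1.05, 1.68 and 0.63 in these 3 comparisons. Correcting for GC content and transcript length lowered the medians to 0.53, 0.98 and 0.44.

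The stalk genes had the highest class median between skull and brain, 2.05, against 1.84 for the small subunit, 1.53 for the large subunit and 1.69 for the paralogs and extra copies. Rplp0, the stalk's base, stood at 194, 118 and 130 CPM in the brain controls, at 608, 655 and 647 CPM in meninges and at 1164, 1056 and 1219 CPM in skull, each tissue scaled on its own. Its 3 tissues did not overlap, and the log2 difference was 1.95 (SE 0.17, adjusted p = 2.77e-06) for meninges and 3.03 (SE 0.18, adjusted p = 1.07e-07) for skull against brain. Rplp1 and Rplp2 differed by 1.78 (SE 0.13) and 2.05 (SE 0.20) between skull and brain. Other named core genes were Rpl10 (1.67, SE 0.08, meninges minus brain), Rpl18 (2.36, SE 0.19, skull minus brain), and Rps19 (1.03, SE 0.17, skull minus meninges). Rps2, a protein of the small subunit near the messenger RNA entry channel, differed by 0.96 (SE 0.12) between skull and meninges.

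Rpl15 and Rpl28 of the large subunit went the other way. Rpl15 stood at 43.1, 45.2 and 46.5 CPM in brain and at 38.3, 39.8 and 40 CPM in meninges, each tissue scaled on its own. In the edgeR fit of the controls together, which scales the tissues jointly, its difference was -0.35 (SE 0.09, adjusted p = 0.0058). Rpl28 was lower in meninges by a log2 difference of -0.52 (SE 0.21, adjusted p = 0.0443), but with the counts of its pseudogene copies added the difference was 0.18 (adjusted p = 0.443). Per kilobase of transcript, core genes spanned 0.468 to 402 CPM per kb in brain (median 55.8), 0.933 to 888 in meninges (median 119) and 1.17 to 1386 in skull (median 210). In skull, Rplp1, Rplp0 and Rps14 were highest (1386, 878 and 874 CPM per kb) and Rpl24, Rpl23a and Rps10 lowest (1.17, 1.82 and 3.84). For Rpl23a and Rps10 the copies held 98.2% and 96.6% of the joint counts, and Rpl24 had 18.3% unique windows.

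**Figure D2:**
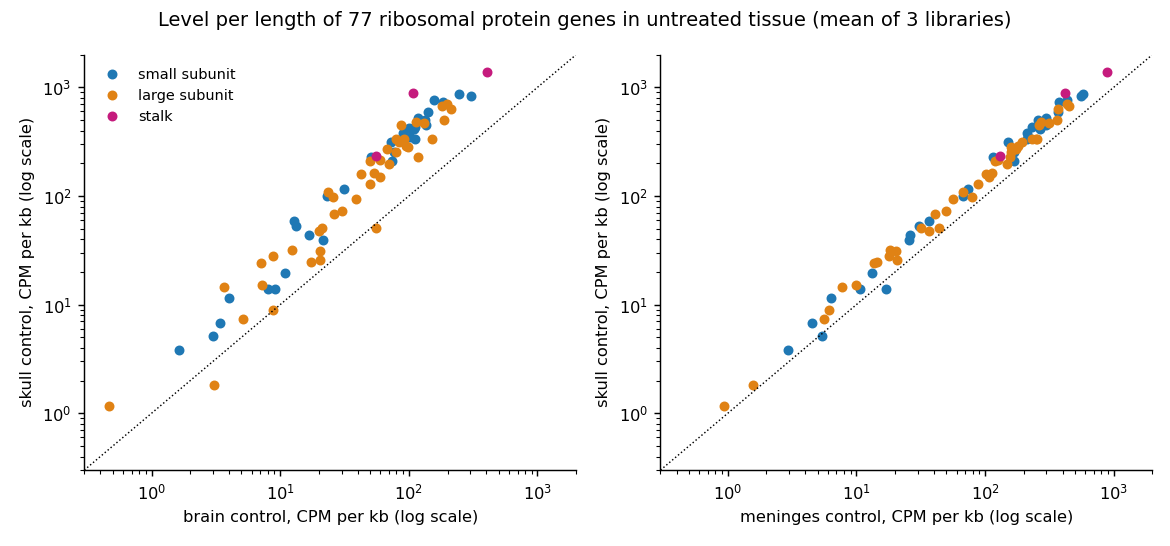
Level per length (mean of 3 control libraries, CPM per kb, log axes) of the 77 core genes in skull (y axis) against brain (left) and meninges (right), colored by class; the dotted line marks equal levels. Nearly all points lie above the line, the stalk gene Rplp0 (108 in brain, 878 in skull) among the farthest from it.

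At 0.5 h after irradiation a share of the ribosomal protein genes was lower in the skull, the irradiated bone. Of 90 members tested 24 fell and none rose (26.7%, background 4.9% of 17426 genes), and 86 of the 90 had a log2 fold change below 0, with a median of -0.30 against 0.00 over all tested genes. The 24 included 13 of 43 large-subunit genes, 9 of 31 small-subunit genes, 2 of the 3 stalk genes and none of 13 paralogs and extra copies tested. The log2 fold changes of all 90 members tested ran from -1.21 to 0.33, the middle 50% lying between -0.40 and -0.21. The call count rests on 2 libraries: without skull 0.5 h replicate 1 or without skull 0.5 h replicate 2 no member passed, although the median stayed at -0.29 and -0.31. Without either of skull control replicates 1 and 3 the count was 9 and 8. DESeq2 gave 43, the fit of the 2 groups alone 10, the GC and length correction 14 (median -0.21).

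Rpl34 of the large subunit stood at 144, 140 and 148 CPM in the control skull, at 102, 98.6 and 114 CPM at 0.5 h and at 121, 112 and 124 CPM at 24 h. Every irradiated library lay below every control library. The change at 0.5 h was -0.45 (SE 0.08, adjusted p = 0.0117). Rplp2 of the stalk stood at 212, 220 and 213 CPM in controls and at 147, 148 and 169 CPM at 0.5 h, a change of -0.47 (SE 0.09, adjusted p = 0.0139). Rps24 of the small subunit stood at 400, 386 and 405 CPM in controls and at 297, 308 and 307 CPM at 0.5 h, a change of -0.39 (SE 0.07, adjusted p = 0.015). Control and 0.5 h libraries did not overlap for any of these 3 genes. Rps24 has 80.9% unique windows and no copy above the 20% limit.

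The other large-subunit genes with the smallest p were Rpl36 (-0.48, SE 0.09), Rpl21 (-0.43, SE 0.08) and Rpl37a (-0.48, SE 0.09), with adjusted p-values of 0.013, 0.0132 and 0.0141. Among the 24 were also Rpl10a (-0.41, SE 0.09), Rps19 (-0.40, SE 0.08), a gene mutated in Diamond-Blackfan anaemia, and Rpl30 (-0.54, SE 0.11), which shares 20.4% of its exon bases with a transcript on the opposite strand. Rpl13a had the lowest change of the 24, from 7.37, 6.43 and 8.63 CPM to 4.08, 4.54 and 4.76 CPM (-0.74, SE 0.18, adjusted p = 0.035), and shares 29.4% of its exon bases with Gm45713 on its own strand. The median was -0.30 for 26 members under 25% unique, -0.32 for 35 between 25% and 60% and -0.29 for 29 at 60% and over, with 5, 10 and 9 calls.

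**Figure D3:**
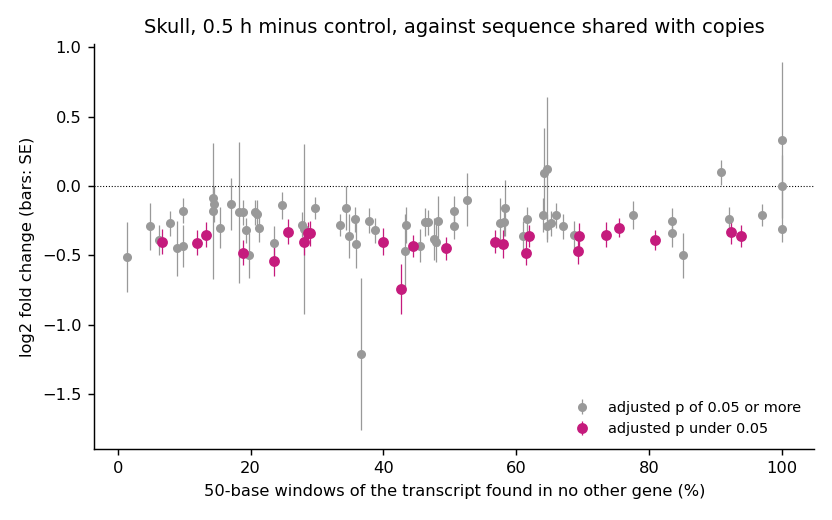
The log2 fold change of 90 members in skull at 0.5 h minus control (y axis, bars are SE) against the percentage of their 50-base windows found in no other annotated transcript (x axis); colored points have an adjusted p under 0.05. The points lie around the same level across the axis, with medians of -0.30, -0.32 and -0.29 in the 3 bands.

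Several other measures of the skull libraries were read beside this comparison. The rank correlation across genes between a library's deviation from the tissue mean and transcript length was 0.07 to 0.21 in the 3 libraries at 0.5 h, -0.18 to -0.01 in the controls and -0.08 to 0.02 at 24 h, and 14 members passed in the fit corrected for GC content and length. Erythroid markers (4 of 4 genes) summed to between 4476 and 5024 CPM in controls and between 5014 and 8026 CPM at 0.5 h. B lineage markers (4 of 4 genes) summed to between 80.8 and 107 CPM in controls and between 104 and 142 CPM at 0.5 h. Mature neutrophil markers (5 of 5 genes) summed to between 2635 and 5689 CPM in controls and between 3761 and 6103 CPM at 0.5 h. The ranges of all 3 lists overlapped. The part of these cell populations in the result was not tested.

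In the meninges at 0.5 h, 2 of 89 members passed, both lower (2.25%, background 0.874%), while 83 of the 89 had a log2 fold change below 0 and the median was -0.25. Rpl34 stood at 101, 103 and 106 CPM in controls and at 73.8, 77.8 and 74 CPM at 0.5 h, a change of -0.46 (SE 0.08, adjusted p = 0.0242). Rpl10a, a large-subunit protein of the L1 stalk, stood at 63.5, 62 and 67.5 CPM and at 47, 44.3 and 45.4 CPM, a change of -0.50 (SE 0.09, adjusted p = 0.0287). For both genes the groups did not overlap. Neither passed without any one of the 6 libraries of the comparison, and DESeq2 called 21 members. The summed share was 1% ± 0.037 at 0.5 h against 1.14% ± 0.0833 in controls.

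In the brain at 0.5 h no member of 85 passed the edgeR test (0%, background 0.0055% of 18172 genes); 10 had an unadjusted p under 0.05, DESeq2 called 1 and limma-voom 0. The median was -0.22 with 77 of 85 below 0, but brain control replicate 1, whose share of 0.5925% was the highest of the brain libraries, set most of it: without that library the median was -0.05. Rpl13a had the smallest p. It stood at 4.94, 6.3 and 5.03 CPM in controls, at 2.23, 2.2 and 1.91 CPM at 0.5 h and at 3.15, 3.06 and 3.81 CPM at 24 h, and the change at 0.5 h was -1.35 (SE 0.25, adjusted p = 0.159). The groups did not overlap. Rpl5 and Rpl9, with the next smallest p-values, had changes of -0.50 (SE 0.17) and -0.34 (SE 0.12).

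Tests of the difference between tissues found none at 0.5 h. In the fit of all 27 libraries no member of 90 passed for meninges minus brain (0%, background 0.0093% of 21500 genes), for skull minus brain (0%, background 0.209%) or for skull minus meninges (0%, background 0.0093%). Unadjusted p-values were under 0.05 for 3, 5 and 1 members, DESeq2 called 1, 0 and 0 and limma-voom none. The median differences were -0.05, -0.08 and -0.04. The calls in skull at 0.5 h are therefore not shown to differ from the other tissues. Rpl13a had the smallest p of the members for meninges minus brain, 1.29 (SE 0.25, adjusted p = 0.0891).

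At 24 h the members of skull and meninges no longer lay on one side of 0, and a few genes stood above or below control. In skull 10 of 90 passed, 4 higher and 6 lower (11.1%, background 20.9%), with a median of -0.05. In meninges 6 of 89 passed, 3 higher and 3 lower (6.74%, background 8.42%), with a median of -0.04. Both shares are under that of all genes. Without a library the counts ranged from 1 to 10 in skull, the lowest without skull 24 h replicate 1, and from 1 to 6 in meninges, with 1 call without meninges control replicate 1, 24 h replicate 2 or 24 h replicate 3. The summed share was 1.7% ± 0.108 in skull and 1.21% ± 0.0595 in meninges, overlapping the controls in both.

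Rpl7l1, Rps2 and Rpsa rose in both tissues. Rpl7l1 (chromosome 17, 46773907 to 46782672 on GRCm38, - strand) is a relative of Rpl7 found on assembling large subunits. It stood at 56.9, 56.8 and 50.1 CPM in the control skull, at 60.5, 60.4 and 54.8 CPM at 0.5 h and at 81.7, 74.4 and 87 CPM at 24 h. In the meninges it stood at 53.7, 57.3 and 56.4 CPM in controls and at 70.7, 87.7 and 73.7 CPM at 24 h. All libraries at 24 h lay above all controls in both tissues, with changes of 0.57 in skull (SE 0.09, adjusted p = 0.00121) and 0.47 in meninges (SE 0.09, adjusted p = 0.0107). Both calls held without any single library and under every alternative fit run, and 90.8% of its windows are unique.

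Rps2 (chromosome 17, 24718116 to 24721929, + strand) stood at 686, 668 and 741 CPM in the control skull, at 590, 637 and 591 CPM at 0.5 h and at 1023, 821 and 1009 CPM at 24 h. The 3 groups did not overlap, and the change at 24 h was 0.45 (SE 0.10, adjusted p = 0.0105). Its call was lost without skull 24 h replicate 1 but held without each of the other libraries. In meninges Rps2 went from 399, 415 and 447 CPM to 516, 585 and 557 CPM, again without overlap, with a change of 0.39 (SE 0.09, adjusted p = 0.0249). Rpsa, the small-subunit protein also known as the laminin receptor, went from 761 ± 30.3 to 947 ± 81 CPM in skull (0.32, SE 0.10, adjusted p = 0.0365) and from 466 ± 9.59 to 574 ± 42.5 CPM in meninges (0.30, SE 0.08, adjusted p = 0.047; SD, n = 3 each). Rps27l, a paralog of Rps27 known as a p53 target, rose in skull from 37.3, 34.3 and 40.3 CPM to 50.4, 45 and 52.1 CPM, without overlap (0.40, SE 0.10, adjusted p = 0.0173). The calls of Rpsa and Rps27l in skull were also lost without skull 24 h replicate 1. In meninges those of Rps2 and Rpsa were lost without meninges control replicate 1, among other libraries.

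The members that fell at 24 h were other genes. In skull they included Rps14, Rpl35a, Rpl34, Rpl37 and Rps27, with changes from -0.27 for Rpl34 (SE 0.08, adjusted p = 0.0327) to -0.78 for Rps27 (SE 0.26, adjusted p = 0.0476). Rps14, which is lost in the 5q- syndrome, went from 505, 473 and 526 CPM to 421, 391 and 419 CPM (-0.29, SE 0.08, adjusted p = 0.0259), with no overlap. In meninges they were Rps27, Rpl34 and Rpl22l1. Rps27 fell by 1.08 on the log2 scale in meninges (SE 0.23, adjusted p = 0.0189), from 6.68, 6.11 and 6.97 CPM to 3.65, 2.78 and 2.92 CPM. It had the lowest share of unique windows of the core genes (1.35%), and its copies, mainly Rps27rt, held 58.2% of the joint counts. Of the 6 that fell in skull, Rps14, Rpl34, Rpl37 and Rps27 did not pass after the correction for GC content and length. Rpl34 did not in meninges.

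In the brain at 24 h, 4 of 85 members fell and none rose (4.71%, background 2.62%), with 79 of 85 below 0 and a median of -0.43. Rpl9 stood at 44.3, 34.6 and 32 CPM in controls, at 31.6, 26.7 and 29.4 CPM at 0.5 h and at 26.4, 25 and 26.7 CPM at 24 h, a change of -0.51 (SE 0.12, adjusted p = 0.0325). Rpl35a (-0.71, SE 0.17) and Rpl29 (-0.39, SE 0.10) had adjusted p-values of 0.0417 and 0.0448. For these 3 genes every 24 h library lay below every control library. The count is unstable: it was 0 without brain control replicate 1, brain control replicate 2, brain 24 h replicate 1 or brain 24 h replicate 2, and 19 without brain control replicate 3. It was 0 with the 2 groups alone, 24 with DESeq2 and 29 without the filter. The median was -0.25 without brain control replicate 1, which had the highest share, and -0.31 without brain 24 h replicate 1, which had the lowest (0.3212%). The rank correlation with transcript length was -0.21, -0.15 and 0.10 in the brain controls and 0.15, 0.09 and -0.00 at 24 h. These 2 libraries thus held its lowest and highest values among the brain libraries.

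**Figure D4:**
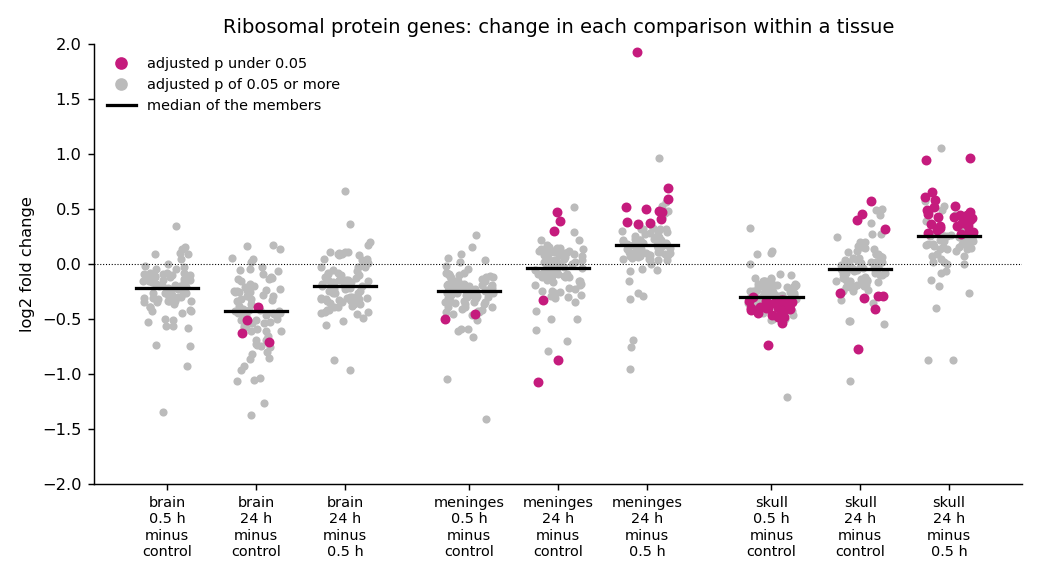
The log2 fold change (y axis) of each tested member in the 9 comparisons within a tissue (x axis); colored points have an adjusted p under 0.05 in edgeR, gray points do not, and the black line is the median of the members. Medians run from -0.43 (brain, 24 h minus control) to 0.25 (skull, 24 h minus 0.5 h); Rpl3l, at -3.83 and -3.32 in the 2 meninges comparisons with 24 h, lies outside the axis.

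From 0.5 h to 24 h the members that passed the test in skull and meninges rose. In skull 30 of 90 rose and none fell (33.3%, background 16.1%), with 82 of 90 above 0 and a median of 0.25. The 30 were 14 large-subunit genes, 9 small-subunit genes, all 3 stalk genes and 4 of 13 paralogs and extra copies. The count ran from 11 without skull 0.5 h replicate 1 to 33 without skull 24 h replicate 2, with 12, 14 and 15 without skull 24 h replicate 1, skull 24 h replicate 3 and skull 0.5 h replicate 2. In meninges 11 of 89 rose and none fell (12.4%, background 2.34%), with a median of 0.17. There the count was 0 without meninges 0.5 h replicate 1, 1 without 0.5 h replicate 3, 2 without 0.5 h replicate 2 or 24 h replicate 2, 5 without 24 h replicate 3, 6 without 24 h replicate 1 or control replicate 2, and 9 and 10 without the other controls. In brain no member of 85 passed in edgeR (0%, background 0.22%); 10 had an unadjusted p under 0.05, and DESeq2 and limma-voom called none. These comparisons share the 0.5 h libraries with those against control.

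Rps2 and Rpsa had the smallest p-values in skull, with changes of 0.65 (SE 0.10, adjusted p = 0.00184) and 0.58 (SE 0.10, adjusted p = 0.00245). Rps27l (0.61, SE 0.10), Rpl29 (0.44, SE 0.08), Rps19 (0.45, SE 0.08) and Rpl14 (0.49, SE 0.09) followed, and these 6 kept their calls without any single library. Rpl29 stood at 154, 163 and 160 CPM at 0.5 h and at 220, 200 and 225 CPM at 24 h, with controls of 201, 186 and 192 CPM. The control libraries lay above all those at 0.5 h and overlapped those at 24 h. In meninges Rps2 rose from 382, 385 and 338 CPM to 516, 585 and 557 CPM, without overlap (0.59, SE 0.09, adjusted p = 0.0117). Rps18 (0.37, SE 0.07), Rpsa (0.50, SE 0.08) and Rpl10a (0.47, SE 0.09) rose there too. Rps10 had the largest change of the 11, from 1.23, 1.01 and 1.07 CPM to 4.37, 5.39 and 2.92 CPM (1.93, SE 0.33, adjusted p = 0.0152), but its copies hold 96.6% of the joint counts and it did not pass with them added.

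**Figure D5:**
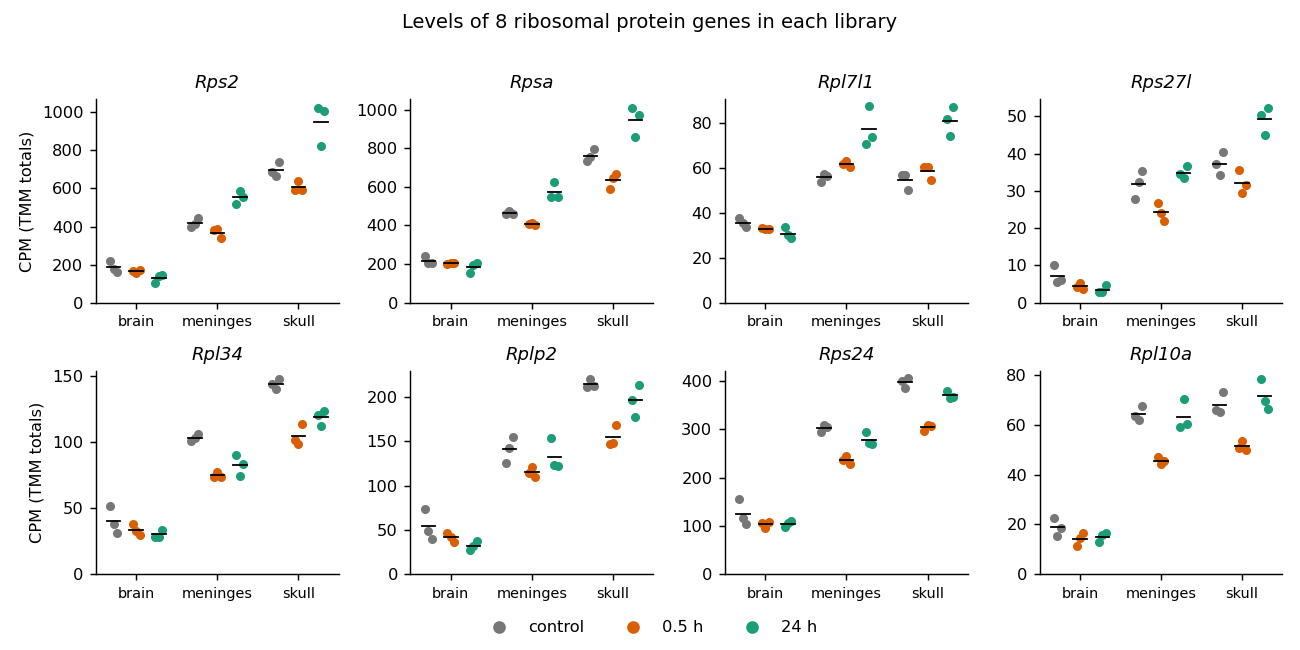
Level (y axis, CPM on TMM-scaled totals, each tissue scaled on its own) of 8 members in each library (points), colored by time, with group means as lines. Rps2, Rpsa, Rpl7l1 and Rps27l stand above control at 24 h in skull; Rpl34, Rplp2, Rps24 and Rpl10a stand below control at 0.5 h in skull, and in brain the mean of each of the 8 at 0.5 h and at 24 h lies below its control mean.

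At 24 h the response differed between the border tissues and the brain for a set of members. For skull minus brain 10 of 90 passed, all with a higher change in skull (11.1%, background 6.71%), and for meninges minus brain 5 of 90, all higher in meninges (5.56%, background 1.32%). For skull minus meninges none of 90 passed in edgeR (0%, background 0.633%); 1 had an unadjusted p under 0.05, and DESeq2 and limma-voom called none. The median differences were 0.32, 0.31 and 0.03. Rpl7l1 differed by 0.77 (SE 0.12, adjusted p = 0.000452) for skull and 0.66 (SE 0.12, adjusted p = 0.00619) for meninges: in brain it stood at 37.9, 35.4 and 33.7 CPM in controls and at 33.5, 30.1 and 28.8 CPM at 24 h. Rps2 differed by 0.96 (SE 0.16, adjusted p = 0.000791) and 0.90 (SE 0.16, adjusted p = 0.00499), its brain level going from 220, 176 and 162 CPM to 103, 138 and 146 CPM. Rps27l differed by 1.47 (SE 0.27, adjusted p = 0.00166) and 1.19 (SE 0.27, adjusted p = 0.026), from 10.1, 5.58 and 6.11 CPM to 2.81, 2.79 and 4.85 CPM in brain. Rpl29 and Rps19 passed for both tissues, and Rpsa, Rpl11, Rps26 and Rpl13a were among those that passed for skull. The brain libraries enter both tests: without brain control replicate 1 the counts were 5 for skull and 2 for meninges, without brain control replicate 3 they were 22 and 12, and without skull 24 h replicate 1 the count for skull was 5. For skull it was 6 without skull control replicate 2, skull 24 h replicate 3 or brain 24 h replicate 1. For meninges it was also 2 without meninges control replicate 1, meninges control replicate 2, meninges 24 h replicate 2, brain 24 h replicate 1 or brain 24 h replicate 2. It was 4 without brain control replicate 2 or meninges control replicate 3, 6 without brain 24 h replicate 3 and 3 without each of the others.

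Marker lists moved in skull between 0.5 h and 24 h as well. Erythroid markers summed to between 2729 and 4222 CPM at 24 h, B lineage markers to between 44.4 and 79.9 CPM and macrophage markers (4 of 4 genes) to between 324 and 346 CPM, all below their ranges at 0.5 h (5014 to 8026, 104 to 142 and 437 to 653 CPM). Osteoblast markers summed to between 3169 and 3542 CPM at 24 h, above 2122 to 3000 CPM at 0.5 h. In meninges, choroid plexus markers were at 14038, 35.4 and 3481 CPM in the 3 libraries at 24 h. The part of these mixtures in the changes was not tested.

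The paralogs and extra copies had patterns of their own. Rpl22l1, the paralog of Rpl22, fell in meninges at 24 h, from 9.82, 10.7 and 12 CPM to 5.27, 6.04 and 6.34 CPM (-0.88, SE 0.22, adjusted p = 0.0352), while Rpl22 itself stood at 129, 132 and 143 CPM and at 132, 119 and 125 CPM. Rpl39l, a paralog of Rpl39 known from the male germ line, had 2, 0 and 0 counts in the brain controls, 25, 30 and 33 in meninges and 97, 66 and 94 in skull. Relative to totals its level in skull was 148 times that in brain (95% counting interval 40.5 to 1228) and in meninges 51 times (13.8 to 430). Skull exceeded meninges by a log2 difference of 1.79 (SE 0.38, adjusted p = 0.00328), and no irradiated group of meninges or skull differed from its control at an adjusted p under 0.05. In brain it was too low to be tested.

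Rpl3l replaces Rpl3 in striated muscle, and among the meninges libraries it was highest where skeletal muscle markers were highest. In the meninges controls it stood at 0.601, 27.6 and 2.25 CPM where skeletal muscle markers summed to 20.9, 3412 and 13.9 CPM. At 0.5 h it stood at 6.18, 0.941 and 14.3 CPM with markers at 832, 23.6 and 1829 CPM, and at 24 h at 0.539, 0.829 and 0.761 CPM with markers at 52.6, 7.52 and 4.61 CPM. Its change of -3.83 in meninges at 24 h (SE 1.65) had an adjusted p of 0.223. Rpl3 itself stood at 240, 235 and 241 CPM in the meninges controls.

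The other copies had few calls. Rps27rt, Rpl37rt, Rps3a2, Rps3a3, Rpl6l and Rps4l were tested in all tissues and had no call against control. All of these but Rps27rt are annotated as processed pseudogenes. Rpl6l and Rps4l rose from 0.5 h to 24 h in skull by 0.43 (SE 0.12, adjusted p = 0.0327) and 0.52 (SE 0.16, adjusted p = 0.0391). Rpl6l has 23.6% unique windows, and genes that share its sequence, mainly Rpl6, hold 95.4% of the joint counts. Its rise cannot be told apart from reads of those genes. Rps4l has 85.1% unique windows. Rpl36al passed the filter in skull and Rpl32l in meninges and skull, at no more than 1.84 and 1.23 CPM. Rps23rg1, matched by the name rule, had at most 9 counts in any library and was tested nowhere. In all 85 members passed the filter in brain, 89 in meninges and 90 in skull. Rps27a, the small-subunit protein made as a fusion with ubiquitin, was picked after its values were seen for its spread among replicates: it stood at 44.3, 36.4 and 15.6 CPM in the control skull, at 35.9, 29.3 and 12.9 CPM at 0.5 h and at 53.8, 45.4 and 16.8 CPM at 24 h, with replicate 3 lowest in each group.

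Genes around the ribosomal proteins were read from lists chosen with earlier results of these data known. Ribosome assembly genes process ribosomal RNA and build the subunits in the nucleolus. At 24 h 21 of 32 rose and none fell in skull (median 0.43, background 20.9% of all tested genes called), among them Rrs1 (1.11, SE 0.11), Nop2 (0.85, SE 0.09) and Tsr1 (0.94, SE 0.12), and 9 of 32 rose in meninges (median 0.33, background 8.42%), among them Nop2 (0.79, SE 0.12) and Rrp9 (0.60, SE 0.12). None of the 32 passed in edgeR at 0.5 h in any tissue or in brain at 24 h. Of all tested genes, 0.0055%, 0.874% and 4.9% were called at 0.5 h in brain, meninges and skull, and 2.62% in brain at 24 h. Unadjusted p-values were under 0.05 for 2, 5 and 5 at 0.5 h in brain, meninges and skull and for 5 in brain at 24 h, and these medians lay between -0.07 and 0.05. The change in skull at 24 h exceeded that in brain for 16 of 32 (background 6.71%).

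Of 18 translation factors with TOP messenger RNAs, only Btf3 passed in skull at 0.5 h, lower (-0.52, SE 0.09, adjusted p = 0.0087). The background there was 4.9% of all tested genes called. The 18 had a median of -0.17 in that comparison, and 9 of them had an unadjusted p under 0.05. At 24 h in skull 4 rose and 1 fell (background 20.9% called), among them Eef1g (0.34, SE 0.09) and Npm1 (0.24, SE 0.07) higher and Tpt1 lower (-0.39, SE 0.09). Of 13 small nucleolar RNA host genes, whose transcripts often carry a TOP start, 12 were tested. In skull at 0.5 h they had a median of -0.34 and 1 call, lower (Snhg1), with a background of 4.9% called. Mitochondrial ribosomal protein genes, which serve a separate ribosome, had a median of -0.11 and no edgeR call among 78 tested in skull at 0.5 h (background 4.9%, unadjusted p under 0.05 for 20). At 24 h 12 of the 78 rose and 1 fell, with a background of 20.9% called.

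Among 15 genes that control ribosomal protein synthesis, 2 rose and 1 fell in skull at 0.5 h, and 4 rose and 1 fell at 24 h. The backgrounds were 4.9% and 20.9% of all tested genes called. Myc, a transcription factor that drives ribosome production, fell in skull at 0.5 h by 1.19 on the log2 scale (SE 0.10, adjusted p = 0.000392) and at 24 h by 1.12 (SE 0.10, adjusted p = 3.34e-05). Mlst8, a subunit of the mTOR complexes, rose by 0.81 (SE 0.16) and 0.91 (SE 0.16), and the S6 kinase gene Rps6kb1 rose at 24 h by 0.60 (SE 0.09). From 0.5 h to 24 h in skull 3 of the 15 rose and none fell (background 16.1% called). Among them Larp1, which binds the TOP start, rose by 0.36 (SE 0.07, adjusted p = 0.00614). Of 14 genes of the response to stalled ribosomes, 13 were tested. Atf4 was the only call in meninges at 0.5 h (-0.62, SE 0.07, adjusted p = 0.00551, background 0.874% called). In skull at 0.5 h Atf4 fell (-0.56, SE 0.09, adjusted p = 0.00591) and Ankzf1 rose (0.48, SE 0.13, adjusted p = 0.0493), with a background of 4.9%. At 24 h in skull Gcn1 and Ltn1 rose and Atf4 fell (background 20.9%). Messenger RNA levels of the members do not measure their translation.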

How the data were processed

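Poly(A) RNA of 27 samples, 3 in each of 9 groups, was sequenced after TRIzol extraction. The authors deposited raw read counts per gene symbol, not normalized; per the submitters' processing notes reads were aligned to mm10 with HISAT2 2.1.0. No source used here names the counting tool, its annotation or its use of strand. A key matched all 27 columns to the labels.

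The members and gene lists were chosen with earlier results of these data known. Each tissue (9 libraries), the 9 controls and all 27 libraries were fitted with edgeR 4.0.16 (R 4.3.3): TMM scaling, filterByExpr (minimum count 10, total 15), robust quasi-likelihood F tests and Benjamini-Hochberg adjustment over all tested genes, with calls at an adjusted p under 0.05. The first gave changes within a tissue, the second differences between controls and the third differences of change between tissues. The SE was the log2 fold change divided by the square root of F. CPM were computed on TMM totals of each tissue's fit, and marker sums on plain totals. Totals of 14.2 to 27.3 M (mega) counts set the counting precision. The code was tested on simulated data with known changes.

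Named members were, within a tissue and for differences between tissues, all those called where 8 or fewer passed, else the 6 with the smallest p in each direction, and the 3 with the smallest p where none passed. Between controls they were the 5 called members with the largest difference in each direction among those averaging at least 1 CPM. The stalk genes, paralogs and the 3 highest and 3 lowest core genes per kilobase were also named, and up to 3 called genes a direction of other lists. Some genes that the rule names are not reported here. Other members given with values were picked after their values were seen.

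Alternatives were RLE scaling, TMM scaling without members, haemoglobin and mitochondrial genes, no filter, DESeq2 1.42.0 and limma-voom (limma 3.58.1). Others were a correction for GC content and length, a replicate block, a fit of the compared groups alone and each library left out. Added after seeing the data was, among others, the fit with the counts of pseudogene copies added. Gene positions and transcripts came from GENCODE M21 (GRCm38), and shared sequence was counted in 50-base windows, a copy sharing at least 20% of them. Promoters came from RefSeq (GRCm38.p6).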

Additional observations from a re-analysis of the deposited data

Results flagged for a closer look

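The change at 24 h differed between tissues, by the test of that difference in the edgeR fit of all 27 libraries. It did so for 5 members between meninges and brain and for 10 between skull and brain, every one with a higher change outside the brain. Between meninges and brain the log2 differences of the changes were 0.90 for Rps2 (SE 0.16), 0.66 for Rpl7l1 (SE 0.12), 1.19 for Rps27l (SE 0.27), 0.76 for Rps19 (SE 0.19) and 0.49 for Rpl29 (SE 0.12), with edgeR adjusted p-values of 0.00499, 0.00619, 0.026, 0.0464 and 0.0479. Between skull and brain they were 0.77 for Rpl7l1 (SE 0.12), 0.96 for Rps2 (SE 0.16), 1.47 for Rps27l (SE 0.27), 0.53 for Rpl29 (SE 0.12) and 0.53 for Rpsa (SE 0.13), with adjusted p-values of 0.000452, 0.000791, 0.00166, 0.00985 and 0.0144. Others between skull and brain included Rps19 with 0.73 (SE 0.19), Rpl11 with 0.46 (SE 0.13), Rpl13a with 0.88 (SE 0.25) and Rps26 with 0.66 (SE 0.20). Their adjusted p-values were 0.0198, 0.0301, 0.0333 and 0.0474. Against control at 24 h, only Rpl7l1, Rps2, Rps27l and Rpsa of the 10 passed as higher in skull. Only Rpl7l1 and Rps2 of the 5 did in meninges. The brain libraries are shared by both comparisons, and both counts depended on brain control replicate 1, as given above.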

How the results depend on the processing

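Many counts of members passing an adjusted p under 0.05 depended on the test and on single libraries. For brain at 0.5 h the count was 1 without the filter and 1 with DESeq2 (0 as reported); for brain at 24 h, 29 without the filter, 24 with DESeq2, 1 with limma-voom, 2 with the replicate block and 0 with the 2 groups alone (4 as reported); for brain from 0.5 h to 24 h, 5 without the filter. For meninges at 0.5 h it was 5 without the filter, 21 with DESeq2, 5 with limma-voom and 0 with the block. For meninges at 24 h it was 3 with the block and 3 with the 2 groups alone. For meninges from 0.5 h to 24 h it was 21 with DESeq2, 4 with the block, 7 with the counts of pseudogene copies added and 7 with the 2 groups alone. For skull at 0.5 h it was 43 with DESeq2, 14 with the GC and length correction, 11 with the block and 10 with the 2 groups alone, and for skull from 0.5 h to 24 h 47 with limma-voom. For differences between tissues it was 1 for meninges minus brain at 0.5 h with DESeq2, 2 with limma-voom and 3 with the block for meninges minus brain at 24 h, and 16 for skull minus brain at 24 h with DESeq2.

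With each library left out in turn, the counts ranged from 0 to 19 for brain at 24 h, from 0 to 4 for meninges at 0.5 h, from 1 to 6 for meninges at 24 h, from 0 to 10 for meninges from 0.5 h to 24 h, from 0 to 24 for skull at 0.5 h, from 1 to 10 for skull at 24 h and from 11 to 33 for skull from 0.5 h to 24 h. Between controls they ranged from 67 to 75 for meninges minus brain, from 80 to 82 for skull minus brain and from 55 to 68 for skull minus meninges, and for the changes at 24 h from 2 to 12 for meninges minus brain and from 5 to 22 for skull minus brain. The causes were not tested.

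Of the named members, 690 values under other settings kept their direction and side of the threshold, 55 lost the call, 4 gained it and 2 reversed; with a library left out 972 kept both and 216 lost the call. The reversed values, both with pseudogene copies added, were Rpl28 in meninges minus brain controls (0.18) and Rps10 in the skull minus meninges difference at 0.5 h (-0.05, against 0.97). Replicate numbers were not taken as pairs: in 0 of 36 pairs of groups were all correlations of same-numbered libraries over 0.1 (range -0.307 to 0.166), and in 5 of 36 every library correlated best with its own number. With the replicate block, skull from 0.5 h to 24 h gave 26 calls and the controls 69, 82 and 57. Depth limited the lowest members, and Rps23rg1 could not be tested.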
